A study of Mus musculus with 6 samples.

Results

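The fibroblast growth factor (FGF) and ERK feedback genes considered here are 10 genes, *Fgf4*, *Fgfr1*, *Fgfr2*, *Fgfr3*, *Grb2*, *Spry2*, *Spry4*, *Dusp6*, *Etv4* and *Etv5*. They were chosen by symbol, with earlier results of these data known. All were found by Ensembl identifier, in 10 of the 55774 rows of the expression table. The data are RNA-sequencing libraries of mouse blastocysts, and the question of the study is whether oviductal extracellular vesicles (oEVs) from women with endometriosis alter the embryo. Wild-type embryos of ICR mice, an outbred strain, were flushed from the oviducts of females aged 6 to 8 weeks injected with gonadotropins. The embryos were cultured for 75 hours in CZB medium. The abstract of the study gives the 2-cell stage at the start of culture, while its methods call the collected embryos zygotes. The medium of both groups contained vesicles from human Fallopian tubal fluid, taken from women with endometriosis (oEV-EMT) or from women without it (oEV-ctrl). For oEV-ctrl the sample labels name uterine fibroids and the methods of the study name another gynaecological condition. Each group had 3 libraries, each from 10 pooled blastocysts, and no library of embryos cultured without vesicles is among these 6. The sources do not say that the pools came from separate cultures or vesicle donors, so the p-values measure only the spread between pools, which may be technical. All levels are FPKM, mapped fragments scaled to the length of the transcript and to the size of the library.

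FGF4 is the ligand that epiblast cells of the inner cell mass secrete. It binds FGF receptors, tyrosine kinases that recruit the adaptor GRB2 and switch on RAS, RAF, MEK and ERK in turn. In the mouse blastocyst this signal directs inner cells to the primitive endoderm and sustains trophoblast stem cells. Active ERK induces its own inhibitors, the Sprouty proteins and the phosphatase DUSP6, and the ETS transcription factors ETV4 and ETV5, so the transcripts of these genes are commonly read as a record of ERK activity. Transcript levels do not measure receptor or kinase activity.

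The promoters of *Fgf4*, *Dusp6* and *Spry2* are printed because of how their groups lay. *Fgf4* and *Dusp6* are the tested members whose groups did not overlap, while *Spry2*, the most abundant inhibitor among the members, showed overlapping groups. Each sequence is the 250 bases before the transcription start in RefSeq (GRCm38.p6), written 5′ to 3′ on the strand of the gene, and no window overlaps an annotated exon. Capitals mark GC boxes, the SP1-type motif GGGCGG searched on both strands.
*Fgf4*, chr7:144861136-144861385, plus strand: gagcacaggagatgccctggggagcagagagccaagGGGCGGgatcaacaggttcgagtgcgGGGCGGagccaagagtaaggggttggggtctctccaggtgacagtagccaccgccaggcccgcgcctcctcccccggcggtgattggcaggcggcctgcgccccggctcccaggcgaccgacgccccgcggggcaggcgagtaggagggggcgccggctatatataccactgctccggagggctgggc
*Dusp6*, chr10:99262981-99263230, plus strand: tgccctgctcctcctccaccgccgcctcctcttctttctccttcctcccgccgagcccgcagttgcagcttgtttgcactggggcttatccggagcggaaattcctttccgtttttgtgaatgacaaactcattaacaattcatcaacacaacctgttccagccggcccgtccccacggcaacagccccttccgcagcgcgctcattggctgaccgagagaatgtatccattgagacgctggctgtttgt
*Spry2*, chr14:105896820-105897069, minus strand: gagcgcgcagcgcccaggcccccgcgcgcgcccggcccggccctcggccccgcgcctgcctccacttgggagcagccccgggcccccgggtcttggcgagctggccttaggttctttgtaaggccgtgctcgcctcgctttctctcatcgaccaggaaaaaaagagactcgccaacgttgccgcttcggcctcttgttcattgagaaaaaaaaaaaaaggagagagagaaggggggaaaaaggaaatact
All 3 windows were rich in CpG. The *Fgf4* window had a GC content of 71.2% and 21 CpG, the *Dusp6* window 56.4% and 16, and the *Spry2* window 62.4% and 23, against medians of 52.4% and 6 over 32851 mouse promoters. The *Fgf4* window held 2 GC boxes and the windows of *Dusp6* and *Spry2* held none, while 32.7% of all promoters hold at least 1. Windows of *Etv5* and *Fgfr3*, members whose groups overlapped, held up to 3. CCGGAA, one of the sequences that ETS factors bind, occurs in 12% of all promoters, and TGANTCA, bound by AP-1, in 6.75%. Neither occurred in the promoter windows of the 7 members that could be matched. Other sequences bound by ETS factors, shorter ones included, were not searched. The letters TATAAA (12.4% of all promoters) occurred in a window of *Grb2* only.

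Several properties of the whole table bear on the values below. The median log2 fold change of all 11924 genes tested was 0.17 in favour of oEV-EMT, and 70.1% of them had a positive value. Median-of-ratios scaling, which sets each library to a common level by the median gene, brought this median to 0.00982. Changes are therefore read against 0.17, or after that scaling. Counts of reads per library were not used here, but the smallest recurring step between FPKM values gave a relative depth of 1.00 to 2.07, highest in oEV-EMT 1 and lowest in oEV-ctrl 1. The largest single row, an unannotated entry, took 15.3% to 31.5% of the summed FPKM.

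The members covered a wide range of levels. *Fgfr2* led with a mean of 39.2 FPKM over the 6 libraries and a range of 29.4 to 55.9. *Spry2* followed at 21 and *Dusp6* at 18.8, and their ranges overlapped. A middle group held *Fgf4* (6.03), *Grb2* (5.81), *Etv5* (3.45) and *Fgfr1* (3.43), whose neighbours in this order also overlapped. The lowest were *Spry4* (0.942), *Etv4* (0.429) and *Fgfr3* (0.231). Only the steps from *Fgfr2* to *Spry2*, from *Dusp6* to *Fgf4* and from *Fgfr1* to *Spry4* separated neighbouring genes without overlap. *Spry4* overlapped *Etv4* in range but was above it in 6 of 6 libraries.

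**Figure D1:**
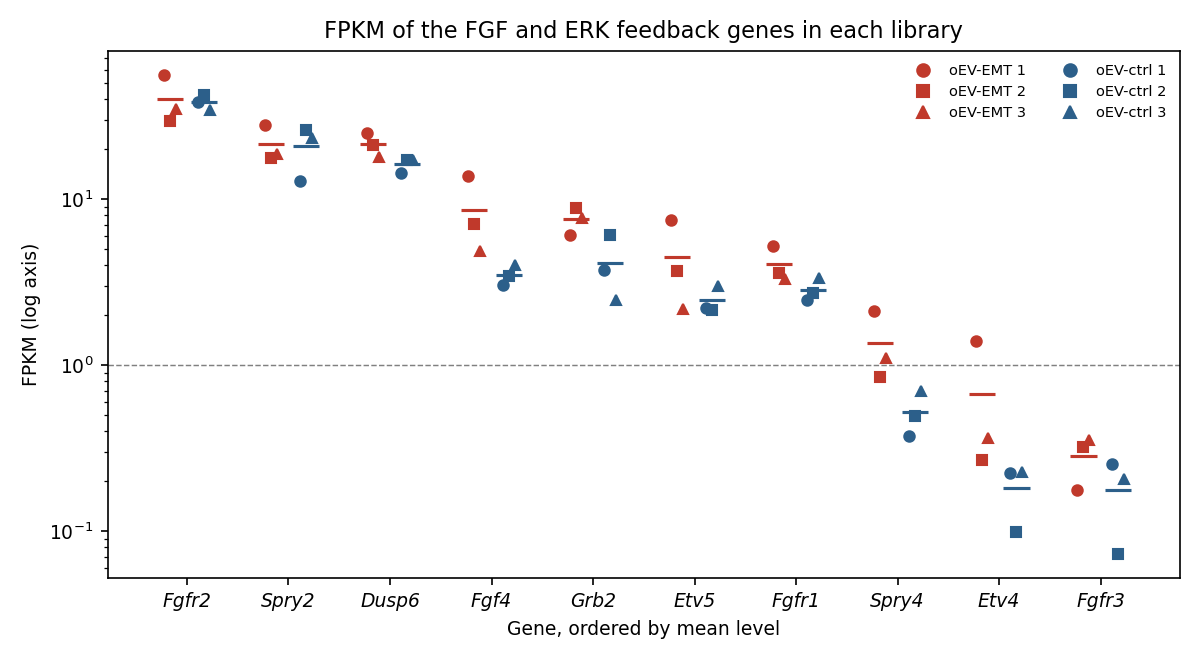
FPKM of the 10 genes on a log axis, ordered by mean level, with 1 point per library (marker shape gives the replicate), horizontal bars for group means and a dashed line at 1 FPKM. *Fgfr2* has the highest mean, 39.2, and *Fgfr3* the lowest, 0.231. oEV-EMT 1 is the highest library for 8 of the 10 genes.

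*Fgf4* (ENSMUSG00000050917, chr7:144847367-144865243, plus strand, GRCm38) had the highest fold change of the tested members. Its level was 13.8, 7.04 and 4.88 FPKM in oEV-EMT 1, 2 and 3 and 3.05, 3.41 and 3.98 FPKM in oEV-ctrl 1, 2 and 3. All oEV-EMT libraries were above all oEV-ctrl libraries, and the oEV-EMT libraries were spread far more widely. The group means were 8.58 ± 4.67 and 3.48 ± 0.472 FPKM (SD, n = 3 each), a ratio of 2.46, or 1.71 without oEV-EMT 1. On the log2(FPKM + 1) scale the difference was 0.99 (SE 0.32, 95% interval 0.28 to 1.70), and limma with Benjamini-Hochberg adjustment over all genes gave an adjusted p of 0.208. Without oEV-EMT 1 the difference was 0.62. The exact two-sided permutation test gave p = 0.1, the smallest possible with 3 libraries a group. Ranked among the tested genes of its own library, *Fgf4* stood at percentiles 60.1, 47.1 and 41.2 in oEV-EMT and at 30.7, 33.7 and 34.1 in oEV-ctrl, and these ranks do not depend on scaling. *Fgf4* shares no 50-base stretch with another annotated gene.

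The receptors showed smaller differences. *Fgfr2* (ENSMUSG00000030849, chr7:130162451-133123350, minus strand), a receptor expressed in trophectoderm and primitive endoderm, read 55.9, 29.4 and 34.8 FPKM in oEV-EMT and 38.4, 42.3 and 34.2 FPKM in oEV-ctrl. The oEV-EMT group held both the highest and the lowest library. The log2 difference was 0.01 (SE 0.26, 95% interval -0.56 to 0.58; limma, Benjamini-Hochberg adjusted p = 0.984), and it became -0.18 after median-of-ratios scaling and -0.25 without oEV-EMT 1. The interval does not exclude a moderate change either way. The annotated span of *Fgfr2* runs into *Ctbp2*, a transcriptional corepressor gene, and 2.47% of the 50-base stretches of *Fgfr2* transcripts also occur in *Ctbp2*. *Ctbp2* itself read 32.6, 25.8 and 28.5 FPKM in oEV-EMT and 2.91, 6.71 and 26.7 FPKM in oEV-ctrl. Its part in the *Fgfr2* values was not tested.

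*Fgfr1* (ENSMUSG00000031565, chr8:25513654-25575718, plus strand), the receptor that epiblast cells also use, read 5.18, 3.60 and 3.31 FPKM in oEV-EMT and 2.46, 2.72 and 3.33 FPKM in oEV-ctrl. The groups overlapped only where oEV-ctrl 3 exceeded oEV-EMT 3. Its log2 difference was 0.38 (SE 0.23, 95% interval -0.14 to 0.89; limma, Benjamini-Hochberg adjusted p = 0.462) and 0.22 after median-of-ratios scaling. *Fgfr3* (ENSMUSG00000054252, chr5:33721674-33737068, plus strand), another receptor of the family, was below the limit for testing, which was 1 FPKM or more in 3 or more of the libraries. It read 0.176, 0.322 and 0.355 FPKM in oEV-EMT and 0.253, 0.0731 and 0.207 FPKM in oEV-ctrl, and the groups overlapped. With the steps taken as single reads, these levels stand for about 15.1 to 75.9 reads per library, and 11.6% of its stretches are shared with other genes.

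*Grb2* (ENSMUSG00000059923, chr11:115644045-115708597, minus strand), the adaptor that links receptors to RAS activation, read 6.06, 8.83 and 7.70 FPKM in oEV-EMT and 3.72, 6.09 and 2.46 FPKM in oEV-ctrl. The groups met only at oEV-EMT 1, which lay just under oEV-ctrl 2. Means were 7.53 ± 1.39 and 4.09 ± 1.84 FPKM (SD, n = 3 each). The log2 difference of 0.79 (SE 0.29, 95% interval 0.16 to 1.43) had an adjusted p of 0.241 (limma, Benjamini-Hochberg). The interval begins below the 0.17 of all genes. After median-of-ratios scaling the difference was 0.63 (SE 0.30; limma, unadjusted p = 0.0688). For *Grb2*, as for *Fgfr3*, oEV-EMT 1 was the lowest of the oEV-EMT libraries. The pseudogenes *Gm12791* and *Gm13542* share 7.54% of its stretches. *Gm12791* read 0.328, 1.07 and 0.996 FPKM in oEV-EMT and 0.382, 0.530 and 0.573 FPKM in oEV-ctrl, well under *Grb2*. Another pseudogene, *Gm11702*, overlaps the annotated span of *Grb2* on the same strand but shares none of its stretches. It read 12.4, 9.33 and 9.80 FPKM in oEV-EMT and 9.95, 11.7 and 8.59 FPKM in oEV-ctrl, above *Grb2* in every library. Its part in the *Grb2* values was not tested.

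The 3 feedback inhibitors did not behave alike. *Spry2* (ENSMUSG00000022114, chr14:105891947-105896819, minus strand), a Sprouty protein that blocks signalling between receptor and RAF, read 27.7, 17.5 and 18.6 FPKM in oEV-EMT and 12.8, 25.9 and 23.4 FPKM in oEV-ctrl. The groups overlapped widely, with the lowest value in oEV-ctrl 1. The log2 difference was 0.07 (SE 0.29, 95% interval -0.59 to 0.72; limma, Benjamini-Hochberg adjusted p = 0.931) and changed sign to -0.12 after median-of-ratios scaling.

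*Spry4* (ENSMUSG00000024427, chromosome 18, minus strand), the low-abundance relative, read 2.13, 0.849 and 1.11 FPKM in oEV-EMT and 0.376, 0.496 and 0.695 FPKM in oEV-ctrl. All oEV-EMT libraries were above all oEV-ctrl libraries, also after median-of-ratios scaling. The means were 1.36 ± 0.674 and 0.522 ± 0.161 FPKM (SD, n = 3 each), a ratio of 2.61, or 1.88 without oEV-EMT 1. Only 2 libraries reached 1 FPKM, so *Spry4* was not among the genes tested. In the fit without a filter its log2 difference was 0.60 (SE 0.23; limma, Benjamini-Hochberg adjusted p = 0.666). That scale understates ratios of genes near 1 FPKM.

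*Dusp6* (ENSMUSG00000019960, chr10:99263231-99267489, plus strand), the cytoplasmic phosphatase that inactivates ERK, read 24.9, 21.2 and 17.8 FPKM in oEV-EMT and 14.3, 17.2 and 17.2 FPKM in oEV-ctrl. The groups did not overlap, but oEV-EMT 3 lay close to the upper oEV-ctrl libraries, and after median-of-ratios scaling they overlapped. The means were 21.3 ± 3.56 and 16.2 ± 1.64 FPKM (SD, n = 3 each). The log2 difference was 0.37 (SE 0.22, 95% interval -0.11 to 0.85; limma, Benjamini-Hochberg adjusted p = 0.445) and 0.18 after median-of-ratios scaling. Of the 3 most abundant members, *Dusp6* had the narrowest range relative to its mean.

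Both ETS factors were highest in oEV-EMT 1. *Etv5* (ENSMUSG00000013089, chr16:22381309-22439719, minus strand) read 7.45, 3.70 and 2.18 FPKM in oEV-EMT and 2.22, 2.14 and 3.0 FPKM in oEV-ctrl. oEV-EMT 3 fell within the oEV-ctrl range. The log2 difference was 0.55 (SE 0.33, 95% interval -0.19 to 1.29; limma, Benjamini-Hochberg adjusted p = 0.458), and 0.17 without oEV-EMT 1. The pseudogene *Gm4798*, at 0.171 to 0.405 FPKM, shares 24.5% of the *Etv5* stretches.

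*Etv4* (ENSMUSG00000017724, chr11:101769742-101785371, minus strand), which was too low for the test, read 1.39, 0.268 and 0.366 FPKM in oEV-EMT and 0.223, 0.0989 and 0.228 FPKM in oEV-ctrl. The groups did not overlap as deposited and did after median-of-ratios scaling. oEV-EMT 1 alone exceeded 1 FPKM, and the ratio of means moved from 3.68 to 1.73 without it. The levels stand for about 11.5 to 244 reads per library if the steps are taken as single reads, though counts were not recovered.

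None of the 10 members passed the call rule, an adjusted p up to 0.05 (limma, Benjamini-Hochberg) together with a log2 fold change of 1 or more in either direction, and neither did any of the 11924 genes tested (0%). The smallest adjusted p over all genes was 0.0934. At an unadjusted p of at most 0.05, 2 of the 7 tested members (*Fgf4* and *Grb2*) were higher in oEV-EMT and none lower, where 12.8% of all tested genes were higher and 2.55% lower. Groups did not overlap for *Fgf4* and *Dusp6*, both above oEV-ctrl, against 18.1% of all tested genes above and 4.34% below. After median-of-ratios scaling only *Fgf4* of the tested members kept this separation, with a background of 9.81% above and 10.2% below. oEV-EMT 1 was the highest library for 8 of the 10 members and for 37.4% of all tested genes. The exceptions were *Grb2*, highest in oEV-EMT 2, and *Fgfr3*, highest in oEV-EMT 3.

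**Figure D2:**
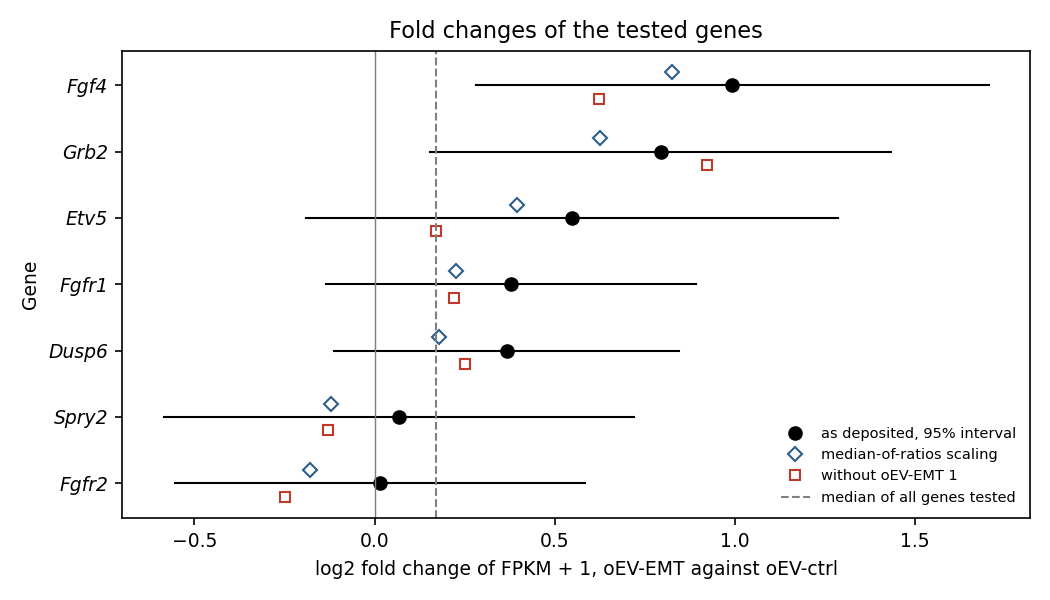
Log2 fold change of FPKM + 1, oEV-EMT against oEV-ctrl (horizontal axis), for the 7 tested genes. Filled points are values as deposited with 95% intervals, open diamonds follow median-of-ratios scaling, open squares leave out oEV-EMT 1, and the dashed line is the median of all genes, 0.17. *Fgf4* (0.99) and *Grb2* (0.79) have intervals above 0, but that of *Grb2* begins at 0.16, below the dashed line. Without oEV-EMT 1 *Fgf4* moves to 0.62.

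Ratios between members within a library do not change with scaling. The 6 ratios were chosen after the values were seen. Their p-values and the adjustment over the 6 do not cover that choice, and no share over all pairs of members was computed. *Fgf4* and *Spry4*, which enter the ratios without overlap, had groups that did not overlap by themselves. *Spry2* exceeded *Spry4* by 13, 20.7 and 16.8 times in oEV-EMT and by 34.1, 52.2 and 33.6 times in oEV-ctrl. *Fgf4* was 0.247, 0.239 and 0.140 of *Fgfr2* in oEV-EMT and 0.0794, 0.0807 and 0.116 of it in oEV-ctrl. These ratios, and that of *Spry2* to *Fgf4* (2.0, 2.49 and 3.81 against 4.20, 7.58 and 5.87), had groups that did not overlap (exact two-sided permutation p = 0.1 each, the smallest possible, Benjamini-Hochberg adjusted p = 0.2 over the 6). The ratio of *Fgfr2* to *Fgfr1* was 10.8, 8.17 and 10.5 in oEV-EMT and 15.6, 15.5 and 10.3 in oEV-ctrl, with overlap at oEV-ctrl 3 (exact p = 0.3, adjusted p = 0.36). The ratio of *Dusp6* to *Spry2*, 0.901 to 1.21 in oEV-EMT and 0.663 to 1.12 in oEV-ctrl, overlapped (exact permutation p = 0.3, adjusted p = 0.36). So did that of *Fgfr1* to *Fgfr3*, 9.33 to 29.4 against 9.75 to 37.2 (exact permutation p = 0.6, adjusted p = 0.6).

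The rest of the pathway was taken as 7 lists of 113 genes, of which 63 were tested. None was called. At an unadjusted p of at most 0.05, 5 were higher and 4 lower, against 12.8% and 2.55% of all tested genes, and the median log2 fold change was 0.15, close to the 0.17 of all genes. The 5 include *Ccnd1* and *Ier3*, which reached 1 FPKM in oEV-EMT libraries only and so had to be higher there. Of 21 other FGF ligands only 2 were tested, and *Fgf10*, a ligand of FGFR2, read 2.76, 2.87 and 2.55 FPKM in oEV-EMT and 1.60, 2.29 and 2.34 FPKM in oEV-ctrl (log2 difference 0.29; limma, Benjamini-Hochberg adjusted p = 0.540). By mean level *Fgf4* was the most abundant FGF ligand measured. None of the 2 tested receptors and co-receptors or of the 8 tested heparan sulfate genes had an unadjusted p of at most 0.05. *Sdc4*, a heparan sulfate carrier that presents FGF to its receptors, was the most abundant of the latter, with 338, 274 and 263 FPKM in oEV-EMT and 152, 216 and 265 FPKM in oEV-ctrl. The groups overlapped at oEV-EMT 3, and the adjusted p was 0.348 (limma, Benjamini-Hochberg).

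Genes between the receptor and ERK had mixed values. In the list of adaptors and RAS activators, which includes none of the members, the median log2 fold change was -0.06, and 5 of 14 tested genes had every oEV-EMT library below every oEV-ctrl library while 1 lay above, against 4.34% and 18.1% of all tested genes. *Cbl*, a ubiquitin ligase that removes active receptors, read 3.49, 2.06 and 1.41 FPKM in oEV-EMT and 3.94, 3.93 and 3.53 FPKM in oEV-ctrl. Its log2 difference was -0.58 (limma, Benjamini-Hochberg adjusted p = 0.321). The adaptor *Crk* read 27.2, 20.4 and 22.7 FPKM against 38.5, 30.0 and 27.8 FPKM, also without overlap. Of 15 tested RAF, MEK and ERK genes, 1 was higher and 1, *Lamtor3*, lower at an unadjusted p of at most 0.05, and 2 lay above oEV-ctrl without overlap and none below. *Lamtor3*, a scaffold for MEK and ERK on late endosomes, read 18.2, 17.7 and 13.2 FPKM in oEV-EMT and 17, 36.0 and 31.5 FPKM in oEV-ctrl, so the groups overlapped at oEV-ctrl 1. Its partner *Lamtor2* ran from 182 to 308 FPKM in oEV-EMT and from 191 to 231 FPKM in oEV-ctrl.

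Among 13 other tested inhibitors, none was higher and 2 were lower at an unadjusted p of at most 0.05, against 12.8% and 2.55% of all tested genes. *Spred2*, a Sprouty-related inhibitor of RAF activation, read 0.537, 1.34 and 1.44 FPKM in oEV-EMT and 3.39, 2.18 and 1.80 FPKM in oEV-ctrl. Its groups did not overlap in the direction opposite to *Spry4* and *Dusp6*, with a log2 difference of -0.72 (limma, Benjamini-Hochberg adjusted p = 0.241). *Errfi1*, an inhibitor of EGF receptor signalling, ran from 38.1 to 47.9 FPKM in oEV-EMT and from 39.5 to 50.8 FPKM in oEV-ctrl. Of the other ERK-responsive genes, 9 were tested, but *Ccnd1* and *Ier3* reached 1 FPKM in oEV-EMT libraries only and so had to be higher there. The median log2 fold change was 0.47 with them and 0.24 over the remaining 7. Among those 7, *Myc* and *Srf* were higher at an unadjusted p of at most 0.05 (12.8% of all tested genes were) and none was lower. *Ccnd1*, the gene of cyclin D1, read 2.48, 1.53 and 1.04 FPKM in oEV-EMT and 0.710, 0.515 and 0.705 FPKM in oEV-ctrl. Its log2 difference was 0.67 (limma, Benjamini-Hochberg adjusted p = 0.222). *Klf6*, the most abundant gene of that list, overlapped widely at 39.9 to 64.0 against 39.6 to 52.5 FPKM. Over the 63 pathway genes, 9 lay above oEV-ctrl without overlap and 7 below as deposited (18.1% and 4.34% of all tested genes). After median-of-ratios scaling 5 lay above and 12 below (9.81% and 10.2% of all tested genes). *Ccnd1* and *Ier3* are among the genes above in both counts.

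**Figure D3:**
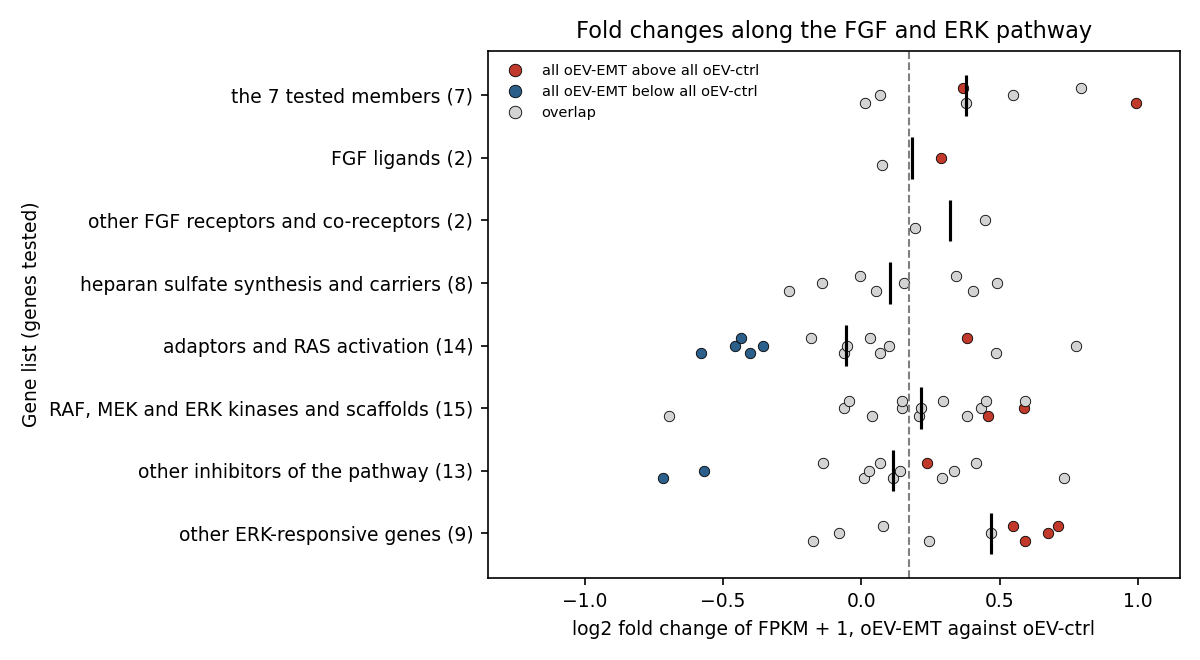
Log2 fold change of FPKM + 1, oEV-EMT against oEV-ctrl, of each tested gene in the members and the 7 pathway lists. Red points have all oEV-EMT libraries above all oEV-ctrl libraries, blue points all below, grey points overlap, black bars are list medians and the dashed line is the median of all genes, 0.17. The adaptor list has the lowest list median, -0.06, and the ERK-responsive median of 0.47 includes *Ccnd1* and *Ier3*, which passed the filter through oEV-EMT alone.

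The lineages that send and receive FGF4 were read from marker lists beside these values. Like the pathway lists, the marker lists were chosen with earlier results of these data known. The shares over all tested genes do not cover that choice. In pools of whole blastocysts, fewer cells of a type and less RNA per cell cannot be told apart. All 12 epiblast markers were tested, and 5 (*Nanog*, *Pou5f1*, *Gdf3*, *Bmp4* and *Dppa4*) had every oEV-EMT library above every oEV-ctrl library, as 18.1% of all tested genes did. The 5 were also separated after median-of-ratios scaling, where 9.81% of all tested genes were. *Nanog*, the pluripotency factor of the early epiblast, read 53.2, 46.2 and 56.1 FPKM in oEV-EMT and 13, 25.8 and 37.5 FPKM in oEV-ctrl. At an unadjusted p of at most 0.05 (limma), 5 epiblast markers were higher and none lower. The shares of all tested genes were 12.8% and 2.55%. The list median log2 fold change was 0.21, against 0.17 for all genes. The summed level of the list overlapped, at 258 to 380 FPKM in oEV-EMT and 198 to 328 FPKM in oEV-ctrl. The sum weighs abundant genes most and does not show the direction of most genes of the list. *Zfp42*, its most abundant gene, ranged from 17.7 to 90.3 FPKM against 63.7 to 130 FPKM, and *Prdm14*, its least abundant, from 1.02 to 1.70 against 1.05 to 1.59 FPKM. *Fgf4* is itself an epiblast transcript, and the part of the epiblast share in its values was not tested.

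The primitive endoderm, which receives the signal, had 15 of 16 markers tested, of which 3 lay above oEV-ctrl without overlap and none below, a share near the 18.1% of all tested genes above. Its summed level was 216 to 398 FPKM in oEV-EMT and 266 to 333 FPKM in oEV-ctrl. *Dab2*, its most abundant marker, overlapped at 104 to 215 against 144 to 206 FPKM, and *Hnf4a*, the lowest, stayed under 1 FPKM in all 6 libraries. At an unadjusted p of at most 0.05 (limma), 2 were higher and none lower, against 12.8% and 2.55% of all tested genes. *Gata4* read 11.3, 7.60 and 7.46 FPKM in oEV-EMT and 5.07, 4.19 and 4.17 FPKM in oEV-ctrl. *Sox17*, the other, overlapped at 1.09 to 4.91 against 0.310 to 1.45 FPKM. Of 15 tested trophectoderm markers, 3 lay below oEV-ctrl without overlap and none above, against 4.34% and 18.1% of all tested genes. After median-of-ratios scaling 4 lay below, against 10.2%. *Elf5*, a trophoblast stem cell factor, had the opposite direction at 26.7, 17.9 and 26.2 FPKM in oEV-EMT and 18.2, 15.3 and 10.3 FPKM in oEV-ctrl (log2 difference 0.67; limma, Benjamini-Hochberg adjusted p = 0.270). The summed level of that list was 13775 to 16227 FPKM in oEV-EMT and 17530 to 20724 FPKM in oEV-ctrl. *Fabp3*, its most abundant gene, made up 5328 to 6039 FPKM of this in oEV-EMT and 6794 to 8657 FPKM in oEV-ctrl, and *Hand1*, the lowest and not tested, read 0.201 to 0.464 FPKM in oEV-EMT and 0 to 0.0243 FPKM in oEV-ctrl.

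Most markers of oviduct, follicle and blood cells were low or absent. Of 15 genes, 6 were listed at 0 in all libraries, including *Foxj1* of ciliated oviduct cells, *Fshr* of granulosa cells and *Ptprc* of leukocytes, and 3 were tested. Their summed level was 9.94 to 17.1 FPKM in oEV-EMT and 5.43 to 9.04 FPKM in oEV-ctrl. Most of it was *Cd68*, a lysosomal protein gene of macrophages and other cells, at 6.24, 12.5 and 14.2 FPKM in oEV-EMT and 3.55, 5.89 and 6.21 FPKM in oEV-ctrl. oEV-EMT 1, the highest library for *Fgf4*, *Spry4*, *Dusp6* and both ETS factors, was the lowest oEV-EMT library for *Cd68*. Of the 3 tested markers, *Cd68* and *Pecam1* were higher in oEV-EMT at an unadjusted p of at most 0.05 (limma) and none was lower. The shares of all tested genes were 12.8% and 2.55%. *Pecam1* overlapped, at 1.22 to 1.98 FPKM in oEV-EMT and 0.622 to 1.28 FPKM in oEV-ctrl. These values do not tell which cells of a pool the transcripts of *Cd68* and *Pecam1* came from. The part of oviduct, follicle or blood cells in the values of the members was not tested.

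**Figure D4:**
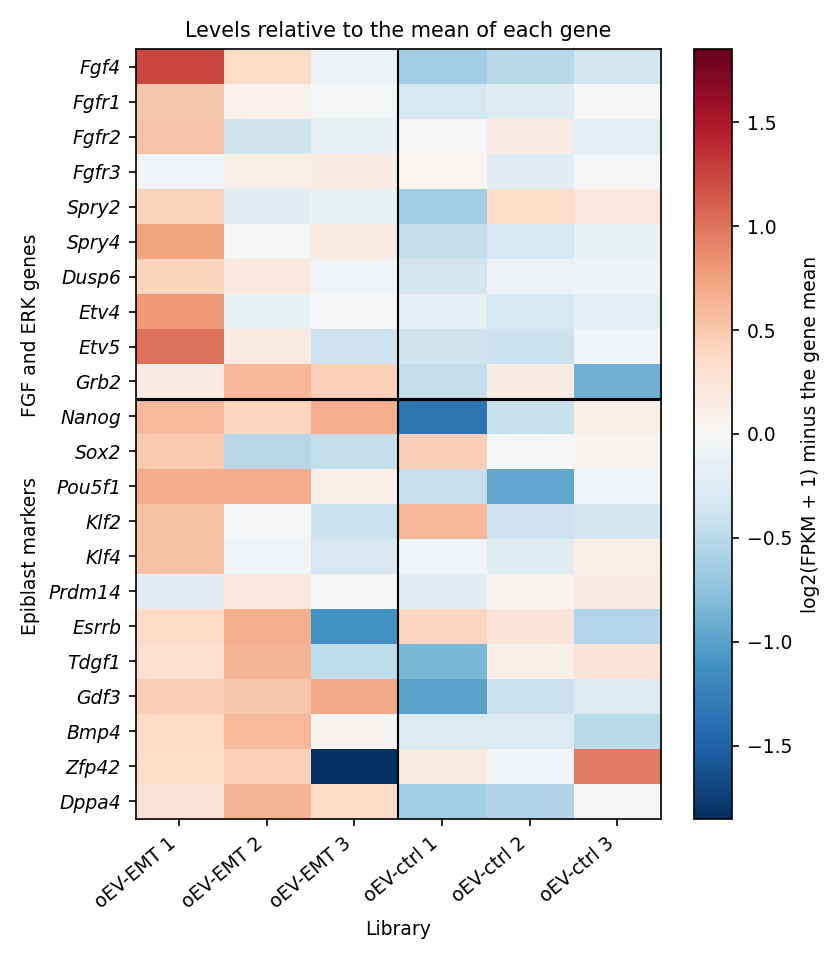
Levels of the 10 FGF and ERK genes (above the black line) and the 12 epiblast markers (below it) in each of the 6 libraries, as log2(FPKM + 1) minus the mean of that gene, red above and blue below it. oEV-EMT 1 is the highest library for *Fgf4* (13.8 FPKM) and *Etv5* (7.45 FPKM), whereas *Nanog* is high in all 3 oEV-EMT libraries (46.2 to 56.1 FPKM).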

How the data were processed

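Total RNA of 10 pooled blastocysts per library was sequenced after poly(A) selection. The deposited table holds FPKM per gene, which the authors made by alignment and reference-based assembly with StringTie against mm10 (per the labels and the methods of the study). The aligner is not given in the sources used here. The methods name TPM, but column sums of 1293175 to 1551567 differ between libraries, as FPKM sums do. All 6 sample columns were used. Counts were not recovered, since only 27.2% to 34.4% of low values lay within 0.02 of a whole step, so read depth is known only in relative terms.

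The groups were compared by limma 3.58.1 (R 4.3.3) on log2(FPKM + 1), with trended, robust variance, over the 11924 genes that reached 1 FPKM in 3 or more libraries. Adjusted p-values are Benjamini-Hochberg over all of these. Differences of log2(FPKM + 1) understate changes of low genes. The script was tested on simulated data. The members and gene lists were chosen with earlier results of these data known. Named were all 10 members, for each pathway list the gene with the smallest unadjusted p if at most 0.05 and the tested gene with the highest mean, and for each marker list the genes with the highest and lowest mean. *Nanog*, the other epiblast genes without overlap, *Myc*, *Srf*, *Ier3*, *Elf5*, *Gata4*, *Sox17*, *Fshr*, *Ptprc*, *Pecam1*, *Ctbp2* and *Gm11702* were named after their values were seen. Symbols came from a gene name table (55141 of 55774 identifiers) and 171 of 172 list symbols matched. Gene models were GENCODE M21, and 7 of 10 members had a RefSeq promoter. Shared stretches are 50-base runs that also occur in transcripts of other genes. Alternatives changed the pseudocount, filter, scaling, variance model, library weights, replicate block and single libraries. Pseudocount 0.1 and 5 were tried.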

Additional observations from a re-analysis of the deposited data

How the results depend on the processing

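No member and no pathway gene was called under any of the alternatives run, and 111 of 123 recomputed log2 fold changes of members kept their direction and stayed uncalled. The other 12 were sign changes of *Fgfr2* and *Spry2*, whose values lay near 0. The fold change of *Fgf4*, 0.99 as deposited, lay between 0.50 and 1.29 and reached 1 in 5 of 17 alternatives. Over all genes, calls went from 0 to 104 with library weights, 21 with the replicate block, 0 to 17 when single libraries were left out (4 without oEV-EMT 1, 1 without oEV-EMT 3, 17 without oEV-ctrl 3), and 4 without oEV-EMT 1 after median-of-ratios scaling, a combination chosen after seeing the data. Members without overlap numbered 2 as deposited, 4 without a filter, 1 after median-of-ratios or upper quartile scaling, 4 after scaling to an equal sum per library, and 2 to 4 with single libraries left out (4 without oEV-EMT 3). Over all tested genes 18.1% lay above and 4.34% below as deposited, and 9.81% and 10.2% after median-of-ratios scaling. That share was not computed for the other settings, so their counts say nothing particular to the members. Members with an unadjusted p of at most 0.05 went from 2 to 1 under median-of-ratios or upper quartile scaling and ranged from 1 (without oEV-EMT 2, oEV-ctrl 1 or oEV-ctrl 3) to 3 (without oEV-EMT 3) with single libraries left out. After median-of-ratios scaling the log2 fold change of *Fgfr2* was -0.18, of *Spry2* -0.12, of *Errfi1* -0.19 and of *Klf6* -0.11. Upper quartile scaling gave *Fgfr2* -0.25, *Spry2* -0.19, *Fgfbp1* -0.059, *Errfi1* -0.25 and *Klf6* -0.18, and library weights gave -0.20, -0.20, -0.12, -0.048 and -0.13. Without oEV-EMT 1 after median-of-ratios scaling the same genes had -0.39, -0.27, -0.36, -0.16 and -0.29. With single libraries left out, *Fgfr2* ranged from -0.25 to 0.20, *Spry2* from -0.23 to 0.25, *Fgfbp1* from -0.22 to 0.40, *Errfi1* from -0.060 to 0.12 and *Klf6* from -0.14 to 0.20. The cause was not tested. Adjusted p ranged from 0.0856 to 0.660 for *Fgf4* and from 0.0826 to 0.666 for *Grb2* over the alternatives (limma). Samples with the same replicate number had correlations of 0.119, -0.0442 and 0.0388 of their deviations from the group means and did not each correlate best with their own number, so the replicate block rests on numbers alone. *Fgfr3* and *Etv4* lie at few reads in most libraries if the steps are taken as single reads, which limits any statement on their order. With 3 pools a group, intervals of *Fgfr2* and *Spry2* reach beyond 0.5 on the log2 scale in both directions.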
